A study of Mus musculus with 2 samples.

Results

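The zinc-finger factors GATA1 to GATA6 and their cofactors FOG1 and FOG2 were followed through single cells of the mouse aorta-gonad-mesonephros region (AGM), the embryonic tissue around the dorsal aorta in which the first blood stem cells emerge. These are 8 of the 31053 genes in the deposited tables (Gata1, Gata2, Gata3, Gata4, Gata5, Gata6, Zfpm1 for FOG1 and Zfpm2 for FOG2). They were chosen by name, as a family.

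The AGM was taken at embryonic day 11 from PDGFRB +/+ embryos (WT) and from PDGFRB -/- embryos (KO), which lack the platelet-derived growth factor receptor beta in every cell. The mutant line was kept as heterozygotes on a C57BL/6J background. Whole AGMs were dissociated with collagenase, suspensions were loaded on a 10x Chromium chip with a target of 7000 recovered cells, and 1 library was made per genotype. The number of embryos in each library is not given in the sources used here, so genotype, library and embryos cannot be told apart.

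The KO library held 7.09 Pdgfrb UMIs per 1000000 UMIs (CPM; a UMI is 1 captured transcript) against 43.1 CPM in WT, with 801 of 8165 KO cells and 2789 of 8253 WT cells carrying at least 1 Pdgfrb UMI. Some Pdgfrb signal therefore remained in the library labelled KO. The libraries also differed in sex transcripts: Xist was at 793 CPM in WT and 0.415 in KO, and the Y-linked Ddx3y was at 0.00666 CPM in WT and 56.7 in KO. Sex and genotype thus cannot be told apart here, also for Gata1, which lies on chromosome X. Cells were barcodes with at least 2000 UMIs and under 10% mitochondrial UMIs, with a median of 13321 UMIs in WT and 12391 in KO. Only 20 cell barcodes occurred in both libraries.

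GATA factors bind the letters A or T, GATA, A or G in DNA through a pair of zinc fingers. GATA1, GATA2 and GATA3 are best known from blood, endothelium and the sympathetic and nephric lineages, while GATA4, GATA5 and GATA6 act in heart, gut, gonad and coelomic mesoderm. FOG1 and FOG2 do not read this DNA motif themselves: they bind the amino-terminal finger of a GATA factor and bring in corepressors of the CtBP and NuRD complexes. GATA1 with FOG1 is the classic pair of red cells and megakaryocytes, and GATA4 with FOG2 is that of heart and gonad.

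The promoters of Gata1 and Zfpm1 are shown because these genes form the pair that the red cell data below turn on. Both are the 250 bases before an annotated start, 5′ to 3′ on the gene's strand, from RefSeq on GRCm38.p6: chrX:7967911-7968160 on the minus strand for Gata1 and chr8:122281891-122282140 on the plus strand for Zfpm1. Capitals mark the letters GATA or CACCC on either strand (CACCC on the other strand reads GGGTG, and GATA reads TATC).
Gata1: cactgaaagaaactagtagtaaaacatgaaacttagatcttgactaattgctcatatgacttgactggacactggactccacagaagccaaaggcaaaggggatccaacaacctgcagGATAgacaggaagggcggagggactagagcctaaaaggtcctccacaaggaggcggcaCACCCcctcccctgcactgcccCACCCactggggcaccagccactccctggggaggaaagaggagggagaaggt
Zfpm1: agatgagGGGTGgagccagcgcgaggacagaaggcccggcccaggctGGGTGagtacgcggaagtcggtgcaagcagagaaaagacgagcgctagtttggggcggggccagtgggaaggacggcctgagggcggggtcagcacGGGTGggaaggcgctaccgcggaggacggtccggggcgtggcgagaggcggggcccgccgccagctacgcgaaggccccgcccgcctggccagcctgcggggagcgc
The Gata1 promoter held 1 GATA match and 2 CACCC matches, and the Zfpm1 promoter held 0 GATA matches and 3 CACCC matches. CACCC is the kind of sequence read by KLF1, a red cell factor. Among the 6 promoters on hand for 5 members (Gata1, Gata2, Gata3, Gata5 and Zfpm1), GATA occurred in 1 and CACCC in 5. Over 32851 mouse promoters of the same 250 bases, 53.6% held GATA and 52.0% held CACCC, both strands counted, so these letters are common and a match is a description only. Promoters of Gata4, Gata6 and Zfpm2 are named only.

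In GRCm38, Gata1 lies on chromosome X (7959260 to 7978071, minus strand), Gata2 on chromosome 6 (88193891 to 88207032, plus strand) and Gata3 on chromosome 2 (9857078 to 9890034, minus strand). Gata4 lies on chromosome 14 (63198922 to 63271692, minus strand), Gata5 on chromosome 2 (180325133 to 180334699, minus strand) and Gata6 on chromosome 18. Zfpm1 lies on chromosome 8 (122282141 to 122337251, plus strand) and Zfpm2 on chromosome 15 (40655035 to 41104592, plus strand). Gata3 overlaps 9230102O04Rik on its own strand and 2 genes on the other strand, Zfpm1 overlaps Gm20388 on its own strand, Gata5 has the antisense gene Gata5os, and Gata6 has the opposite-strand transcript 1010001N08Rik. How reads in such overlaps were assigned was not tested, so the counts of these 4 genes carry that limit.

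Cells were sorted into classes by marker genes, none of them a member, with at least 4 markers of a class required. In each library, 11 classes had at least 50 cells, the last of them the other mesenchyme that passed only the general mesenchyme gate. Check markers kept out of the gates stood above the remaining cells in the erythroid, macrophage, endothelial, sympathetic, Schwann precursor, myogenic, sclerotome, smooth muscle and coelomic classes. They did not all do so for the class gated on Foxf1, Foxf2, Barx1, Tcf21, Wnt2, Nkx2-3, Tlx1, Nkx2-5 and Isl1, where 1 of 3 was higher in WT and 2 of 3 in KO. Foxf1 itself was not required, and 78 of the 501 WT and 9 of the 274 KO cells had no Foxf1 UMI. This class is called Foxf1-gated mesenchyme here. The plots label it visceral mesenchyme. Its gate markers also differed between the libraries: Barx1 was at 162 CPM in WT and 2.86 in KO, and Tlx1 at 32.3 CPM and 0 CPM.

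Among the 11 classes of the WT library, Gata1 and Zfpm1 were highest in erythroid-like cells, Gata2 and Gata3 in sympathetic-like cells, Gata4, Gata6 and Zfpm2 in coelomic-like cells, and Gata5 in Foxf1-gated mesenchyme. In KO, each of the 8 members was highest in the same class as in WT. Over all cells, Gata1, Gata3 and Gata6 were at least 1.5-fold lower in KO, while none of the 8 was 1.5-fold higher. Of the 17628 genes with at least 20 UMIs, 16.0% passed 1.5-fold in either direction, 8.58% higher and 7.47% lower, with a median log2 ratio of 0.06.

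**Figure D1:**
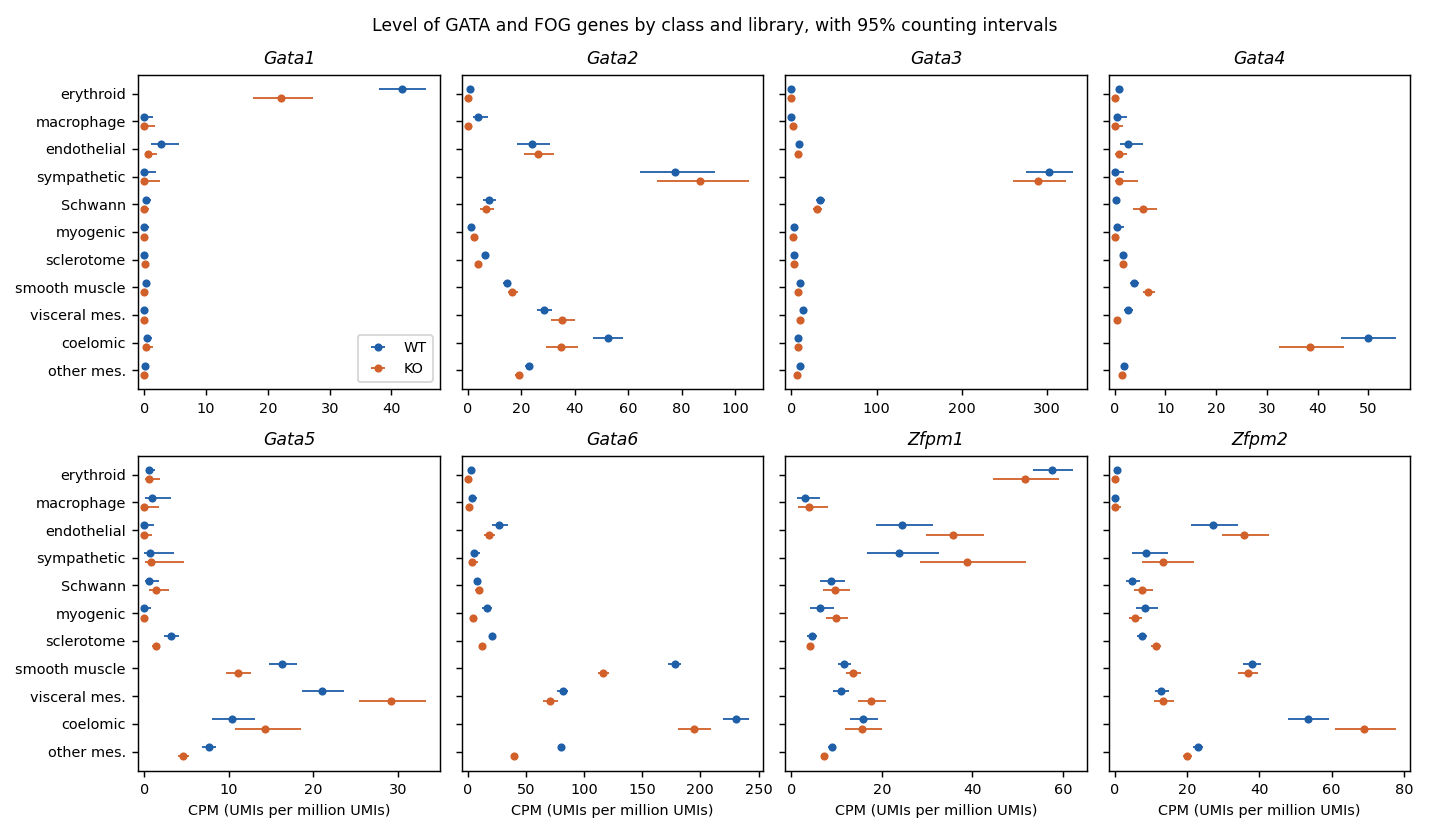
Level of each of the 8 members, in CPM on linear axes that differ between genes, in each cell class of the WT and KO libraries; points are single libraries and lines are exact 95% counting intervals. Gata1 stood at 41.7 CPM in WT and 22.0 in KO erythroid-like cells, and Gata3 at 302 and 289 CPM in sympathetic-like cells.

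All intervals below are exact Poisson or binomial 95% intervals. They cover counting error within a library, not the variation between embryos. Those of levels and ratios also leave out the variation between cells, since UMIs of the same cell are treated as independent. They are too narrow where few cells hold many of a gene's UMIs. In KO smooth muscle-like cells, for instance, 41 of 220 Gata5 UMIs lay in 1 cell. With 1 library per genotype no test of a genotype difference was made. Levels are compared within a gene across classes and not between genes, since UMIs come from the 3′ end and capture differs by transcript. A ratio below means log2 of KO CPM over WT CPM.

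Counted by class, 2 of 3 members with 20 UMIs passed 1.5-fold in erythroid-like cells, 2 of 6 in Schwann precursor-like cells, 4 of 5 in myogenic cells and 4 of 7 in sclerotome-like cells. The shares of all genes there were 42.0%, 14.1%, 15.3% and 12.5%. In smooth muscle-like cells and Foxf1-gated mesenchyme 2 of 7 passed each, with 13.1% and 12.8% of all genes, and in other mesenchyme 2 of 7 passed with 12.9%. In macrophage-like cells no member reached 20 UMIs, while 14.2% of 8921 genes passed.

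The members past 1.5-fold in myogenic cells were Gata6 and Zfpm2, lower in KO, and Gata2 and Zfpm1, higher in KO. Of these only the Gata6 interval excluded 0, and Gata2 rested on 4 WT and 17 KO UMIs. In sclerotome-like cells Gata2, Gata5 and Gata6 were lower and Zfpm2 higher, and each interval excluded 0. Many of the sclerotome-like cells with these UMIs passed another gate. For Gata5 these were 15 of 27 in WT and 10 of 22 in KO, and for Gata6 40 of 92 and 40 of 115. For Gata2 they were 15 of 46 and 20 of 44, and for Zfpm2 35 of 86 and 41 of 226. In the whole class 9.15% of WT and 6.68% of KO cells did.

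**Figure D2:**
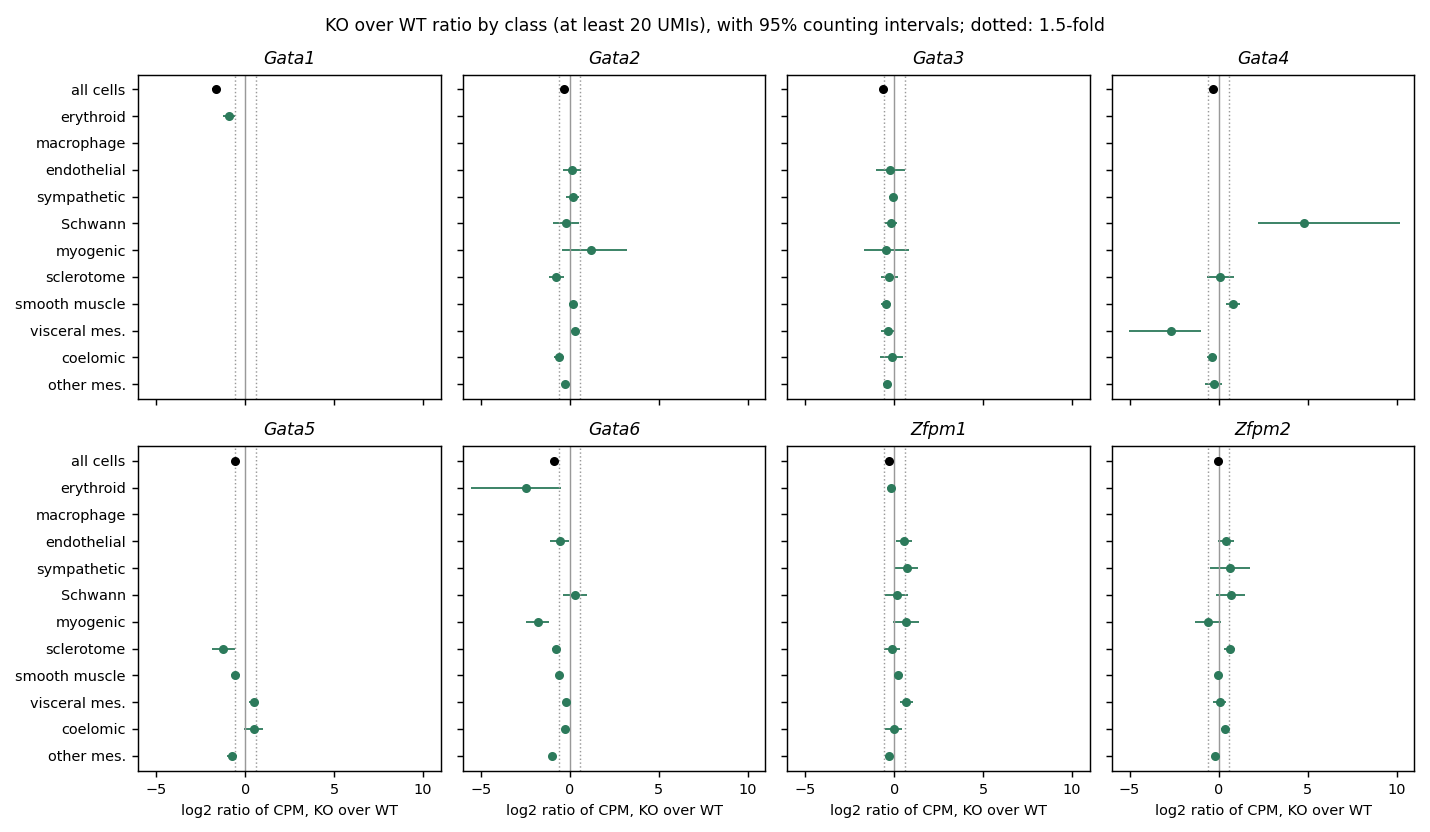
Log2 ratio of KO over WT level of each member in each class with at least 20 UMIs of the gene, with exact 95% counting intervals, a line at 0 for equal levels and dotted lines at 1.5-fold. Gata6 lies below 0 in 8 of 9 classes with an interval that excludes 0.

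Gata1, the master factor of red cell and megakaryocyte maturation, was counted 684 times in WT cells and 209 times in KO cells, 4.55 and 1.47 CPM, a ratio of -1.63 (-1.86 to -1.41). The KO library held fewer erythroid-like cells, 197 against 671, and these held 41.1% of its Gata1 UMIs against 69.9% in WT. Fewer cells and less RNA per cell cannot be told apart in that sum. Of the other Gata1 UMIs, 93 in WT and 68 in KO lay in cells of a blood, endothelial or neural gate that also passed the mesenchyme gate. In KO, 32 of these lay in 1 cell. Cells tied between classes held a further 54 in WT, 30 of them in 1 cell.

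Within erythroid-like cells, Gata1 stood at 41.7 CPM in WT (38.0 to 45.6) and 22.0 in KO (17.6 to 27.2), a ratio of -0.92 (-1.27 to -0.58). In this class 42.0% of 7881 genes passed 1.5-fold, 39.7% lower in KO and 2.28% higher. There the median ratio was -0.46, and globin took 70.4% of UMIs in KO against 61.4% in WT. Zfpm1 was at 57.6 CPM in WT (53.3 to 62.2) and 51.5 in KO (44.6 to 59.2), a ratio of -0.16 (-0.40 to 0.07). The Gata1 intervals of the libraries did not overlap, and those of Zfpm1 did.

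When globin UMIs were left out of the total, a choice made after seeing the data, Gata1 was at 108 CPM in WT and 74.5 in KO, a ratio of -0.53 (-0.88 to -0.20). Zfpm1 was then at 149 and 174 CPM, a ratio of 0.22 (-0.01 to 0.45). The median ratio of all genes was then -0.07. The sign for Zfpm1 thus depends on the scaling, and that for Gata1 does not.

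Gata1 was detected in 45.6% of WT and 27.9% of KO erythroid-like cells, at a median of 16335 and 19027 UMIs per cell. In sclerotome-like cells, which should lack Gata1, the shares were 0% of 907 cells (up to 0.406%) and 0.187% of 1601 cells. With each cell thinned to 2000 UMIs, the erythroid shares were 7.0% and 3.05%. The next highest level among the larger classes was 2.71 CPM in WT endothelial-like cells, from 7 UMIs in 2 cells. Both cells, and the single KO endothelial-like cell with Gata1, also passed another gate, and their median depths were 55818 UMIs in WT and 92315 in KO.

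Gata1 and its partner Zfpm1 were also counted cell by cell. Among WT erythroid-like cells with a Gata1 UMI, 57.8% (52.1 to 63.4) had a Zfpm1 UMI, against 49.9% of those without, and the KO shares were 60.0% and 45.8%. Cells with more UMIs are more likely to show both genes, and after thinning to 2000 UMIs Zfpm1 was in 5 of 47 WT cells with Gata1 (10.6%) and in 9.13% of those without, with overlapping intervals. In KO it was then in 1 of 6 cells with Gata1 and in 21 of 191 of those without. Across the 11 classes, the levels of the 2 genes had r = 0.80 in WT and 0.60 in KO, which describes 11 classes of 1 library each.

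Zfpm1 reached beyond red cells. After erythroid-like cells its levels in WT were 24.4 CPM in endothelial-like and 23.8 CPM in sympathetic-like cells, whose intervals overlapped, then 15.9 CPM in coelomic-like cells. It was lowest in macrophage-like cells at 3.1 CPM in WT and 3.93 in KO, from 7 UMIs in each.

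Among the 10 classes with any member at 20 or more UMIs, the interval of the Zfpm1 ratio lay above 0 in 3, below 0 in 1 and included 0 in 6. The 3 were endothelial-like cells (24.4 CPM in WT, 35.8 in KO, ratio 0.55, 0.10 to 1.01), sympathetic-like cells (23.8 in WT, 38.8 in KO, ratio 0.71, 0.05 to 1.36) and Foxf1-gated mesenchyme (10.9 in WT, 17.5 in KO, ratio 0.69, 0.33 to 1.03). In other mesenchyme, Zfpm1 was at 9.03 and 7.31 CPM, a ratio of -0.31 (-0.52 to -0.09). Over all cells its ratio was -0.30.

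Small blood classes held these genes too. The 6 megakaryocyte-like cells of each library carried 18 Gata1 UMIs in WT (283 CPM) and 27 in KO (195 CPM), from 3 and 4 cells, and Zfpm1 stood at 189 and 231 CPM. In KO, 1 cell held 21 of the 27 Gata1 UMIs, 1 cell held 26 of the 32 Zfpm1 UMIs, and 2 of the 4 KO cells with Gata1 passed another gate. In cells of a leukocyte gate whose leading genes include S100a8 and S100a9, and which therefore keep no name, Gata2 was at 28.7 CPM in WT (22 UMIs, 31 cells) and 89.1 in KO (83 UMIs, 33 cells). GATA2 is required by blood stem and progenitor cells. With 14 of the 22 WT UMIs and 29 of the 83 KO UMIs in 1 cell each, these values rest on few cells.

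Gata2 was highest in sympathetic-like cells, at 77.6 CPM in WT (64.5 to 92.5) and 86.8 in KO (70.9 to 105), followed in WT by coelomic-like cells at 52.3 CPM, with no overlap of the intervals. In KO, Foxf1-gated mesenchyme at 35.4 CPM and coelomic-like cells at 34.8 CPM came next, with overlapping intervals. Endothelial-like cells came below both in each library. Their interval overlapped that of Foxf1-gated mesenchyme in both libraries and that of coelomic-like cells in KO. They were at 24.0 CPM in WT (18.4 to 30.8) and 26.3 in KO (21.2 to 32.3), a ratio of 0.13 (-0.35 to 0.62). The sign of this ratio turned with the mean of per-cell CPM, to -0.49. In endothelial-like cells 12.7% of 10151 genes passed 1.5-fold, and 0 of the 5 members with 20 UMIs did.

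GATA2 is the family member that endothelium needs to form blood. Endothelial-like cells with a Kit UMI, the marker of the clusters that bud from the aortic wall, held Gata2 at 15.7 CPM against 40.7 CPM without Kit in WT. In KO both groups were at 26.3 CPM. Cells with a Kit UMI were also the deeper ones, at a median of 41669.5 against 9739.5 UMIs in WT and 52521 against 12782 in KO, so depth and Kit cannot be told apart in this split. When Kit was read from cells thinned to 2000 UMIs, Gata2 was at 12.2 CPM with Kit and 24.8 without in WT, and at 47.0 and 25.1 CPM in KO, with overlapping intervals in both libraries.

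Gata6 showed the same order in both libraries, at 18.6 CPM with Kit and 44.2 CPM without in WT and at 8.64 and 40.4 CPM in KO. With Kit read after thinning, the WT values were 42.5 and 26.1 CPM, in the other order and with overlapping intervals. Zfpm2 showed the reverse order, at 32.5 and 16.3 CPM in WT and 37.9 and 31.0 CPM in KO, with intervals that overlapped in both. The 7 WT and 2 KO Gata1 UMIs of endothelial-like cells all lay in cells with a Kit UMI, the same deep cells that passed another gate. From globin UMIs, the free RNA share of endothelial-like cells was estimated at 23.4% in WT and 24.8% in KO. The same estimate was 0.84% and 0.73% in sympathetic-like cells, 0.63% and 0.58% in coelomic-like cells and 0.75% and 0.56% in Foxf1-gated mesenchyme. Free RNA and globin UMIs of another origin cannot be told apart in this estimate. The part of free RNA in these splits was not tested.

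In Foxf1-gated mesenchyme Gata2 was at 28.6 CPM in WT and 35.4 in KO, a ratio of 0.31 (0.08 to 0.54). In coelomic-like cells it was at 52.3 CPM in WT and 34.8 in KO, a ratio of -0.59 (-0.89 to -0.30). It was the only one of 7 tested members past 1.5-fold there, where 13.8% of 11964 genes passed. In sclerotome-like cells it was at 6.32 and 3.77 CPM (ratio -0.75).

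Gata3, a determinant of sympathetic neurons, chromaffin cells and the nephric duct, was strongly concentrated. Sympathetic-like cells held 302 CPM in WT (275 to 330) and 289 in KO (259 to 321), and Schwann precursor-like cells followed at 33.9 and 30.3 CPM. Foxf1-gated mesenchyme came next at 13.5 and 10.7 CPM. The sympathetic ratio was -0.06 (-0.26 to 0.14).

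The all-cell level of Gata3 was 14.8 CPM in WT and 9.74 in KO, a ratio of -0.61 (-0.70 to -0.51). By class, the Gata3 ratio itself was below 0 in each of the 9 classes with at least 20 UMIs. In 7 of the 9 classes with at least 20 UMIs the interval of the Gata3 ratio included 0, and in 2, smooth muscle-like cells (10.8 CPM in WT, 7.83 in KO) and other mesenchyme (9.88 in WT, 7.38 in KO), it lay below 0. The set-aside cells that passed a blood, endothelial or neural gate together with the general mesenchyme gate numbered 176 in WT and 80 in KO and held 312 and 56 Gata3 UMIs. Their part in the all-cell ratio was not tested.

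Of sympathetic-like cells, 76.2% in WT and 78.7% in KO had a Gata3 UMI, and 46.0% and 39.3% did after thinning to 2000 UMIs. The median depth was 19584 UMIs in WT and 9990 in KO. In macrophage-like cells the shares were 0% of 122 cells in WT (up to 2.98%) and 2.78% in KO. Gata2 was found in 49.2% and 34.4% of sympathetic-like cells, 83.9% and 95.2% of which also had a Gata3 UMI, against 68.8% and 70.0% of cells without Gata2. After thinning, Gata3 was in 3 of 7 WT cells with Gata2 (42.9%) and in 46.4% of those without, and in KO in 2 of 3 cells and 37.9%.

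Sympathetic-like cells had 21.8% of 9258 genes past 1.5-fold, and 2 of the 4 members tested, both FOG genes and both higher in KO. Zfpm2 there was at 8.76 CPM in WT (14 UMIs) and 13.5 in KO (16 UMIs), a ratio of 0.62 (-0.51 to 1.77). Outside the main classes, 54 Gata3 UMIs in 3 WT and 16 in 6 KO nephric-like cells gave 175 and 33.8 CPM. They came from 2 cells in each library.

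Gata4, which directs gonad, heart and coelomic epithelium, was concentrated in coelomic-like cells. These held 49.8 CPM in WT (44.7 to 55.4) and 38.4 in KO (32.5 to 45.1), a ratio of -0.38 (-0.66 to -0.09). Smooth muscle-like cells came next at 3.83 and 6.68 CPM. At least 1 Gata4 UMI occurred in 35.5% (WT) and 31.4% (KO) of coelomic-like cells, at median depths of 29109 and 28056 UMIs, and in 7.56% and 6.67% after thinning. The share in sclerotome-like cells was 1.54% and 0.874%.

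Within the coelomic gate, Gata4 and Zfpm2 followed Lhx9, a gonadal ridge factor, and Gata2 followed Upk3b, a mesothelial gene. In WT, the 21 cells with Lhx9 only held Gata4 at 101 CPM, the 53 cells with both genes at 83.8 CPM and the 94 cells with Upk3b only at 14.8 CPM. The first 2 intervals overlapped, and the third lay below both. Zfpm2 ran the same way at 109, 60.6 and 35.5 CPM, and Gata2 the other way at 6.74, 13.2 and 91.1 CPM. Gata6 was at 246, 329 and 151 CPM, highest where both genes were found.

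The KO library showed the same orders. Its 6, 31 and 60 cells of these kinds held Gata4 at 147, 71.7 and 6.91 CPM, Zfpm2 at 169, 95.2 and 43.9 CPM, Gata2 at 5.44, 10.1 and 47.4 CPM and Gata6 at 196, 275 and 141 CPM. Lhx9 and Upk3b are gate markers, so the split describes cells inside the gate.

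**Figure D3:**
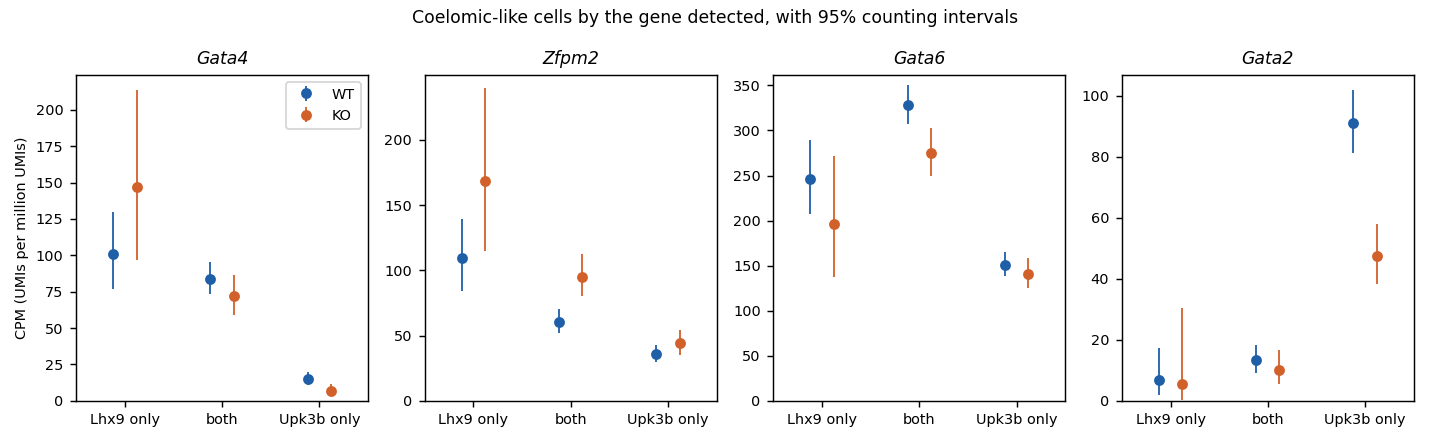
Levels of Gata4, Zfpm2, Gata6 and Gata2, in CPM, in coelomic-like cells with a UMI of Lhx9 only, of both Lhx9 and Upk3b, or of Upk3b only, in each library, with exact 95% counting intervals. In WT, Gata4 goes from 101 CPM with Lhx9 only to 14.8 CPM with Upk3b only, and Gata2 from 6.74 to 91.1 CPM.

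With an Lhx9 UMI, a split chosen after seeing the data, the Gata4 ratio was -0.12 (-0.43 to 0.18), and without one it was -1.17 (-2.14 to -0.29), with overlapping intervals. Gata2 in cells without an Lhx9 UMI was at 90.9 CPM in WT and 54.2 in KO, a ratio of -0.75, and with one the ratio was -0.34 (-1.27 to 0.53). When coelomic-like cells passing more than 1 gate were left out, the Gata4 ratio of the whole class was 0.06 (-0.31 to 0.43), so its sign turned.

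Of the 11 classes, FOG2 (Zfpm2), the cofactor of GATA4 in heart and gonad, was also highest in coelomic-like cells. It stood at 53.4 CPM in WT (48.0 to 59.2) and 69.0 in KO (61.0 to 77.8), a ratio of 0.37 (0.14 to 0.60). With an Lhx9 UMI its ratio was 0.57 (0.28 to 0.86) and without one 0.17. Over all cells Zfpm2 was at 20.3 and 19.5 CPM, a ratio of -0.05 (-0.13 to 0.02), the smallest of the 8 members.

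Smooth muscle-like cells followed at 37.9 CPM in WT and 36.8 in KO, and endothelial-like cells at 27.1 and 35.8 CPM. The WT intervals of these did not overlap (35.4 to 40.5 against 21.1 to 34.3), and the KO intervals did. Erythroid-like cells held 7 Zfpm2 UMIs in WT and 0 in KO, and macrophage-like cells 0 in both. In sclerotome-like cells Zfpm2 went from 7.48 to 11.4 CPM, a ratio of 0.61 (0.31 to 0.92).

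Gata4 was also set against Gata6 and Zfpm2 within single coelomic-like cells. A Gata6 UMI was present in 98.4% of the 61 WT cells with Gata4 and 77.5% of those without, and in 100% of the 33 KO cells with Gata4 and 79.2% of those without. Zfpm2 was present in 68.9% with and 43.2% without Gata4 in WT, and in 84.8% and 36.1% in KO. After thinning, 9 of 13 WT cells with Gata4 had Gata6, 69.2% (38.6 to 90.9) against 29.6% (22.6 to 37.3) of those without, and 3 of 7 KO cells did against 22.4%. Thinned Zfpm2 was in 3 of 13 WT cells with Gata4 against 10.7% of those without, and in 0 of 7 KO cells against 12.2%. Of these 4 thinned comparisons, only that of Gata4 with Gata6 in WT had intervals that did not overlap.

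Outside the coelomic gate Gata4 counts were few and uneven. In Foxf1-gated mesenchyme 36 UMIs in 15 WT cells stood against 3 UMIs in 3 KO cells, 2.60 and 0.408 CPM, a ratio of -2.67 (-5.02 to -1.01). In smooth muscle-like cells 89 UMIs in 45 WT cells stood against 133 UMIs in 27 KO cells, a ratio of 0.80 (0.40 to 1.21). Of these cells, 14 in WT and 12 in KO passed another gate, and 1 KO cell held 19 UMIs. The median depth of the cells with Gata4 was 43373 UMIs in WT and 61407 in KO, against 23068 and 24756.5 in the class. The 10 WT and 5 KO adrenocortical-like cells held Gata4 at 61.3 and 174 CPM, with 27 of the 28 WT UMIs in 1 cell.

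Schwann precursor-like cells showed 1 Gata4 UMI in WT and 25 in KO, and all 25 lay in a single cell. That cell had 139777 UMIs, among them 1 Sox10, 19 Lhx9 and 29 Wt1 UMIs, and it passed another gate. The ratio of 4.81 (2.20 to 10.17) is thus a value of 1 barcode.

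GATA5 acts in heart endocardium and foregut mesoderm and endoderm. Its transcript was highest in Foxf1-gated mesenchyme, at 21.0 CPM in WT (18.7 to 23.6) and 29.1 in KO (25.3 to 33.3), a ratio of 0.47 (0.21 to 0.73). In WT, smooth muscle-like cells followed at 16.3 CPM and coelomic-like cells at 10.3 CPM. In KO the 2 classes changed places, at 11.05 and 14.3 CPM, with overlapping intervals, and 21 of the 55 KO coelomic UMIs came from 1 cell.

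Over all cells Gata5 was at 8.40 CPM in WT and 5.72 in KO, a ratio of -0.55 (-0.68 to -0.43). The ratio lay below 0 in smooth muscle-like cells (-0.56), other mesenchyme (-0.74) and sclerotome-like cells (-1.22), against the higher KO level in Foxf1-gated mesenchyme. Endothelial-like and myogenic cells held 0 Gata5 UMIs in both libraries. A UMI was found in 19.2% of WT cells of Foxf1-gated mesenchyme, 3.39% after thinning.

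Gata6 had the most UMIs of the family, 12328 in WT and 6370 in KO. GATA6 acts in visceral mesoderm, smooth muscle and adrenal and gonadal precursors. Among the 11 classes the highest ones came in the same order in both libraries. Further down, myogenic cells (16.2 CPM in WT, 4.70 in KO) and Schwann precursor-like cells (7.62 and 9.26 CPM) changed places. Coelomic-like cells were at 230 CPM in WT (219 to 242) and 194 in KO (181 to 209), and smooth muscle-like cells at 178 and 116 CPM. Foxf1-gated mesenchyme followed at 81.5 and 70.9 CPM, and other mesenchyme at 80.1 and 39.9 CPM. The WT intervals of the last pair overlapped, and the KO intervals did not. Outside the 11 classes, the 10 WT and 5 KO adrenocortical-like cells held 124 and 55 Gata6 UMIs. Their Gata6 and Zfpm2 levels lay above those of coelomic-like cells in both libraries, with overlapping intervals except for Zfpm2 in KO. Of the 9 WT and 5 KO cells with Gata6, 7 and 2 passed another gate. In KO, 1 of 3 check markers of this class stood above the remaining cells.

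Intervals that lay below 0 were found in more classes for Gata6, which had the most UMIs, than for any other member. Of 9 classes with at least 20 Gata6 UMIs, the interval of the ratio lay below 0 in 8 and included 0 in 1, and in 5 of the 9 the level was at least 1.5-fold lower. In myogenic cells the WT level rested on few cells: 61 UMIs came from 6 of 124 cells, 21 of them from 1 cell, and 2 of the 6 passed another gate, while the KO level came from 33 UMIs in 13 of 283 cells. The 5 were erythroid-like, myogenic, sclerotome-like and smooth muscle-like cells and other mesenchyme. Of the sclerotome-like cells with Gata6, 40 of 92 in WT and 40 of 115 in KO passed another gate. The erythroid value rested on 32 WT and 2 KO UMIs, in a class where 39.7% of all genes were 1.5-fold lower. Over all cells Gata6 went from 82.1 to 44.8 CPM, a ratio of -0.87 (-0.92 to -0.83).

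The class values ranged widely. In other mesenchyme the Gata6 ratio was -1.005 (-1.09 to -0.92), in sclerotome-like cells -0.79 (21.2 CPM in WT, 12.2 in KO), in myogenic cells -1.79 (16.2 in WT, 4.70 in KO) and in smooth muscle-like cells -0.61 (-0.68 to -0.54). In coelomic-like cells it was -0.24 (-0.37 to -0.12) and in Foxf1-gated mesenchyme -0.20 (-0.35 to -0.05), and the latter sign turned under 4 other settings. Erythroid-like cells held 32 Gata6 UMIs in WT and 2 in KO, at 2.79 and 0.513 CPM. Free RNA carried Gata6 at 52.7 CPM in WT and 39.4 in KO.

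A Gata6 UMI occurred in 71.4% (WT) and 55.5% (KO) of smooth muscle-like cells, 24.0% and 17.3% after thinning. The shares in macrophage-like cells were 7.38% and 1.85%, and 0.820% and 0% after thinning.

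The mesenchyme of the libraries was not alike in Barx1 and Foxf1. In smooth muscle-like cells Barx1 was at 17.3 CPM in WT and 0.502 in KO, and Foxf1 at 19.97 and 48.2 CPM. Different cells sampled and different expression in the same cells cannot be told apart here. Barx1 marks stomach mesenchyme and Foxf1 the mesenchyme around the gut tube. The Gata6 ratio was therefore taken apart by these genes, after seeing the data. Without a Barx1 UMI it was -0.62 (-0.70 to -0.54) in smooth muscle-like cells, -1.03 (-1.12 to -0.95) in other mesenchyme and -0.17 (-0.33 to 0.00) in Foxf1-gated mesenchyme.

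The same split bore on other members in Foxf1-gated mesenchyme, where 187 of the WT cells and 17 of the KO cells had a Barx1 UMI. In cells without Barx1, Gata2 was at 40.8 CPM in WT and 40.0 in KO (ratio -0.03, -0.27 to 0.21), and Gata5 at 30.0 and 29.9 CPM (ratio -0.01, -0.29 to 0.27), so both higher KO levels given above were not seen there. Zfpm1 was still higher in KO, at 12.7 and 18.1 CPM (ratio 0.52, 0.12 to 0.91). Gata4 had 27 UMIs in WT and 1 in KO in these cells. With a Barx1 UMI, Gata5 was at 7.58 CPM in WT and 23.5 in KO (ratio 1.63, 0.80 to 2.42), from 21 KO UMIs. Gata2 there was at 10.3 and 2.24 CPM (ratio -2.20, -5.28 to -0.28), from 2 KO UMIs.

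With a Foxf1 UMI, smooth muscle-like cells held Gata6 at 217 CPM in WT and 105 in KO (ratio -1.04), and without one at 160 and 123 CPM (ratio -0.38). In other mesenchyme the values were 119 and 55.5 CPM with Foxf1 (ratio -1.10) and 70.8 and 37.3 CPM without (ratio -0.92). Gata6 was lower in KO in each of these parts. Gata2 in smooth muscle-like cells with a Foxf1 UMI went the other way, from 9.18 to 23.3 CPM, a ratio of 1.34 (0.93 to 1.77). Without a Foxf1 UMI, Gata2 was lower in KO, at 17.2 and 12.8 CPM (ratio -0.43, -0.72 to -0.14). In the whole class its ratio was 0.19 (-0.03 to 0.41), and 35 of the 333 KO UMIs lay in 1 cell. The Zfpm2 ratio there was -0.69 (-0.95 to -0.44) with Foxf1 and 0.29 (0.11 to 0.47) without.

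**Figure D4:**
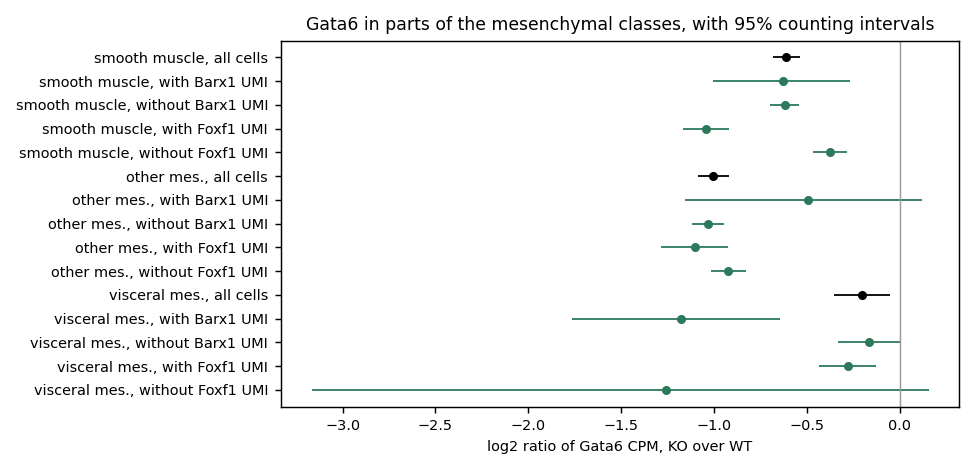
Log2 ratio of KO over WT Gata6 level in mesenchymal classes (black) and in their cells with and without a UMI of Foxf1 or of Barx1 (green), with exact 95% counting intervals and a line at 0. Every point lies below 0, from -0.17 in Foxf1-gated (visceral) mesenchyme without Barx1 to -1.26 in its cells without Foxf1, of which KO has 9.

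The study divided stromal cells by PDGFRβ and by NG2, a pericyte proteoglycan encoded by Cspg4, into double-positive (DP), PDGFRβ single-positive (PDGFRβ-S), NG2 single-positive (NG2-S) and double-negative (DN) cells. The study used staining and clusters, and also sorted DP, PDGFRβ-S and DN cells for bulk RNA sequencing. Those bulk data were not used here. Instead, WT cells were split by a UMI of Pdgfrb and of Cspg4. Sclerotome-like and smooth muscle-like cells, Foxf1-gated mesenchyme, other mesenchyme and ungated cells entered. All other classes were left out, among them coelomic-like, adrenocortical-like and germ-like cells, as were cells tied between classes and the set-aside cells. The 1558 ungated cells passed no gate, not even that for mesenchyme. Gata6 was at 130 CPM in the 399 DP cells, 113 CPM in the 2118 PDGFRβ-S cells, 51.6 CPM in the 252 NG2-S cells and 53.4 CPM in the 3794 DN cells. The cells with a Pdgfrb UMI were thus the higher ones, also after thinning, with a Gata6 UMI in 16.5%, 14.4%, 7.94% and 8.99% of cells. The pooled classes themselves differed in WT Gata6, from 178 CPM in smooth muscle-like cells to 21.2 CPM in sclerotome-like cells. The groups were not split by class, so class and Pdgfrb cannot be told apart here. Without the ungated cells, a choice made after seeing the data, Gata6 was at 130.1, 114, 50.7 and 54.9 CPM and Zfpm2 at 29.9, 25.6, 12.7 and 16.4 CPM, in the same order.

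Zfpm2 went with it, at 29.9, 25.4, 12.4 and 15.2 CPM in DP, PDGFRβ-S, NG2-S and DN cells. Gata2 was at 10.7, 22.1, 5.27 and 18.7 CPM, lower in both groups with a Cspg4 UMI. Gata5 was at 8.63, 13.3, 7.57 and 8.50 CPM, Gata3 at 9.16, 11.6, 5.96 and 7.51 CPM, and Gata4 at 3.28, 2.57, 0.917 and 2.97 CPM. Median depth was 23636, 16107, 14300.5 and 9115.5 UMIs, so a missing UMI in a DN cell is weaker evidence of absence.

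**Figure D5:**
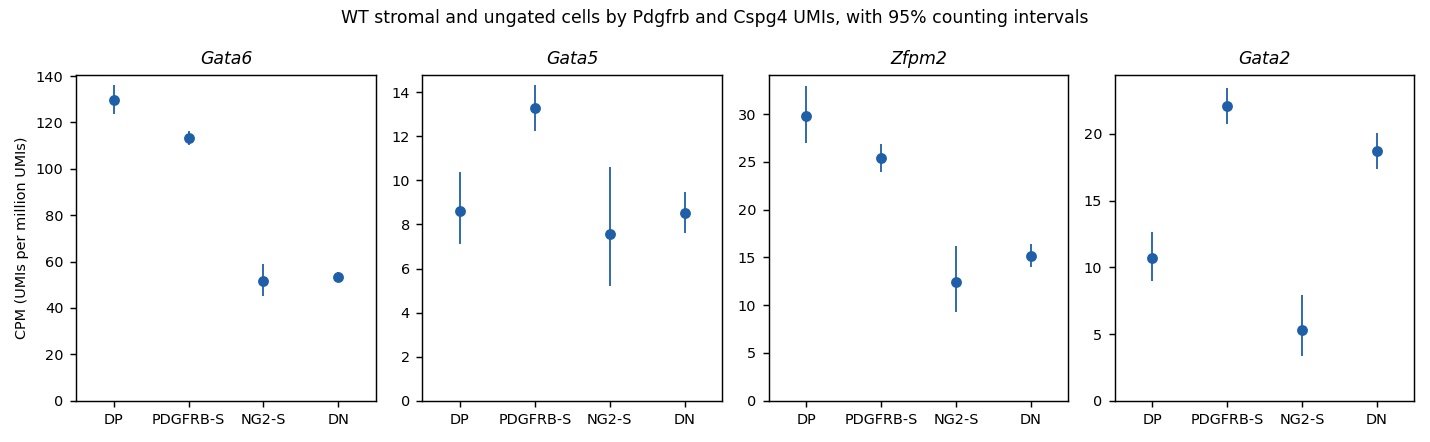
Levels of Gata6, Gata5, Zfpm2 and Gata2, in CPM, in WT stromal and ungated cells split by a UMI of Pdgfrb and of Cspg4 (DP, PDGFRβ-S, NG2-S and DN), with exact 95% counting intervals. Gata6 is at 130 and 113 CPM in the groups with a Pdgfrb UMI and at 51.6 and 53.4 CPM in those without.

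The genes most like each member were ranked by the correlation of log2(CPM + 10) over the 11 WT classes among 13879 genes, with the KO value beside it. With 11 points from 1 library, and a high value in 1 class for most members, these describe shared location only. Gata1 was most like Hemgn (r = 0.999 in WT and 0.999 in KO), a red cell gene that was itself a gate marker, Cyp4b1 and Gm33336. Gata4 was most like Amhr2, the anti-Müllerian hormone receptor (0.99 and 0.98), AC167229.1 and Lhx9, a gate marker.

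Gata3 was most like Nefl, a neurofilament gene (0.99 and 0.96), and Sgsm1. Gata6 was most like 1010001N08Rik, the transcript on its opposite strand (0.99 and 0.97), then Lypd6 and Neurl1b. Gata5 was most like Ntsr1, Kcnq3 and Tcf21, the last a gate marker (0.96 and 0.94).

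Gata2 was most like Lrrc27 (0.95 and 0.82), Osbpl10 and Nrxn2, and Zfpm1 was most like Cmas (0.95 and 0.87), Add2, an erythrocyte adducin, and Cmpk2. Zfpm2 was most like Pcdhb20 (0.96 and 0.70), Clu (0.95 and 0.91) and Tmc4. Between members the closest pairs were Gata6 with Zfpm2 (0.90 and 0.84) and Gata5 with Gata6 (0.85 and 0.84), ahead of Gata1 with Zfpm1 and of Gata2 with Gata3 (0.70 and 0.72).

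The other genes of the pathway were taken from lists. Of 10 partners of GATA factors in blood, 4 were at least 1.5-fold lower in KO over all cells, 1 was higher, and the median ratio was -0.19, where 7.47% of all genes were lower, 8.58% higher and the median was 0.06. Nfe2, which drives globin and platelet genes, was at 4.24 CPM in WT and 1.69 in KO (-1.32). Gfi1b, a repressor of transcription that acts in red cells and megakaryocytes, had a ratio of -1.18. Erg, an endothelial and stem cell factor, was at 1.37 and 2.26 CPM (0.73). Within erythroid-like cells, of which there were 671 in WT and 197 in KO, only 1 of the 7 genes with 20 UMIs was 1.5-fold lower, where 39.7% of all genes were, and the median was -0.32 against -0.46. There Nfe2 had a ratio of -0.32 (-0.63 to -0.03) and Gfi1b one of -0.45 (-0.98 to 0.04).

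Of 15 corepressor genes of FOG proteins (the CtBP and NuRD complexes), none passed 1.5-fold over all cells in either direction. Of all genes 16.0% did, and the median of the 15 was -0.02. The span went from Mta3 at -0.18 to Chd3 at 0.44, a NuRD helicase. In erythroid-like cells 9 of the 15 were at least 1.5-fold lower and the median was -0.70, where 39.7% of all genes were lower and the median was -0.46. Of 9 other genes with a GATA-type zinc finger, 8 had 20 UMIs. None of these passed 1.5-fold over all cells, against 16.0% of all genes, and the highest ratio was 0.57 for Trps1. This list shares its Mta and Gatad2 genes with the corepressor list, so the results of the lists are not independent.

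Of 11 heart, gonad and gut partners, 5 were at least 1.5-fold lower (7.47% of all genes) and none higher (8.58%) over all cells, with a median of -0.56. Within coelomic-like cells, where 10 of them had 20 UMIs, 2 were higher and 1 lower, where 13.8% of genes passed in either direction, with a median of 0.04. Nkx2-5, a heart factor that also marks spleen and pyloric mesenchyme and was a gate marker, went from 1.82 to 0.0281 CPM (-6.02), and Tbx20 from 8.42 to 2.66 CPM (-1.66). Of 10 sympathoadrenal and nephric partners, 4 were lower and 1 higher, with a median of -0.45. Phox2a, a sympathetic factor, went from 15.6 to 8.63 CPM (-0.85), and Lhx1, a nephric duct factor, from 0.313 to 1.10 CPM (1.82). Within sympathetic-like cells 0 of the 7 genes of this last list with 20 UMIs passed 1.5-fold, where 21.8% of 9258 genes did.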

How the data were processed

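Single-cell suspensions of whole embryonic day 11 AGM were profiled with 10x Chromium 3′ chemistry, 1 WT and 1 KO library. Per the submitters' processing notes, the authors made the tables with Cell Ranger 3.1.0 on mm10. The deposited files hold unnormalised UMI counts per gene and barcode, unfiltered (1438264 WT and 1411683 KO barcodes with a UMI). From these counts, barcodes with at least 2000 UMIs and under 10% mitochondrial UMIs were kept (954 WT and 992 KO barcodes failed the latter). The study instead called cells with EmptyDrops, which keeps smaller barcodes, and removed KO cells with Pdgfrb. Cells held 150175081 UMIs in WT and 142222182 in KO.

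Each cell went to the class with the largest share of its gate markers detected, with at least 4 markers required, a number set after seeing the counts. The members and lists were chosen with earlier results of these data known. Cells of a blood, endothelial or neural gate that also passed the general mesenchyme gate were set aside by a rule set after seeing the data. Doublets were kept and no doublet caller was run. The cells passing more than 1 gate numbered 524 in WT and 478 in KO.

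UMIs were summed per class and library and given as UMIs per 1000000 (CPM). Levels carry exact Poisson and shares exact binomial intervals at 95%, for counting error only. Ratios carry an interval from the exact binomial interval of the KO count. A gene entered a fold count with at least 20 UMIs over both libraries, and 3 counts stood in for a count of 0. Free RNA was read from barcodes with at most 100 UMIs, and its share of a class from that class's globin UMIs. No statistical test was run, since there is 1 library per genotype. Named genes are the 8 members, for each member the 3 genes most correlated over WT classes among genes with at least 100 UMIs, and from each list the largest increase, the largest decrease and any gene past 2-fold. A gene that this rule names is not reported here. Scripts were tested on simulated data.

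Alternatives were 5000 UMIs per cell, mitochondrial limits of none and 5%, 1 more gate marker, cells passing more than 1 gate left out, the mean of per-cell CPM, edgeR TMM factors, thinning to 2000 UMIs, subtraction of free RNA, and removal of cells with a Pdgfrb UMI. Added after seeing the data were keeping the set-aside cells, leaving out globin, splits by Foxf1, Barx1 and Lhx9, and leaving ungated cells out of the Pdgfrb and Cspg4 split. Python 3.11.15, NumPy 2.4.6, SciPy 1.17.1, pandas 2.3.3, matplotlib 3.10.9, R 4.3.3 and edgeR 4.0.16 were used. Gene positions are GENCODE on GRCm38.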

Additional observations from a re-analysis of the deposited data

Results flagged for a closer look

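Gata4 differed between the libraries in opposite directions in different classes, with intervals that did not include 0. Its log2 ratio of KO over WT was 4.81 in Schwann precursor-like cells, 0.80 in smooth muscle-like cells and -2.67 in Foxf1-gated mesenchyme. The first value rests on 25 KO UMIs of a single cell, and the last on 3 KO and 36 WT UMIs. The second rests on 27 KO and 45 WT cells with a UMI, of which 12 and 14 passed another gate. The difference between these classes was not tested, since each genotype has 1 library.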

How the results depend on the processing

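Of 91 alternative values of the log2 ratios, 67 stayed within the counting interval of the reported value and 10 turned its sign. In 5 of the 10 the reported interval included 0: Zfpm1 in erythroid-like cells and Gata2 in endothelial-like cells, with values below. The other 5 are Gata4 in coelomic-like cells without cells passing more than 1 gate (0.0640) and Gata6 in Foxf1-gated mesenchyme without such cells (0.10), without cells with a Pdgfrb UMI in either library (0.64), with the mean of per-cell CPM (0.0708) and with thinning (0.52). That Gata6 ratio was -0.0310 under a 5% mitochondrial limit and -0.0214 without KO cells with a Pdgfrb UMI.

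In erythroid-like cells edgeR TMM factors, which shift every ratio there by 0.45, gave -0.47 for Gata1 and 0.29 for Zfpm1. Leaving out globin gave -0.53 and 0.22, and thinning gave 0.29 for Zfpm1. A 5% mitochondrial limit gave 1.503 for Gata2 in endothelial-like cells, -0.999 for Gata4 and 1.10 for Zfpm2 in coelomic-like cells and -0.31 for Gata5 over all cells. Gata2 in endothelial-like cells was -0.49 with per-cell CPM and -0.90 with thinning. Gata3 in sympathetic-like cells was -0.31 without cells passing more than 1 gate and -0.40 with thinning. Gata4 in coelomic-like cells was -0.82 without Pdgfrb cells in either library. Gata5 over all cells was -0.72 without cells passing more than 1 gate, -0.79 without Pdgfrb cells of KO and -0.18 without those of both libraries. The number of members past 1.5-fold over all cells was between 2 and 4. The causes were not tested.

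Thinning each WT cell to 2000 UMIs lowered the shares with a UMI to 7.0% for Gata1 and 9.24% for Zfpm1 in erythroid-like cells, 11.1% for Gata2 and 46.0% for Gata3 in sympathetic-like cells, 3.39% for Gata5 in Foxf1-gated mesenchyme, and 7.56% for Gata4, 32.6% for Gata6 and 11.6% for Zfpm2 in coelomic-like cells. Co-detection fell to 10.6% for Zfpm1 with Gata1 and 69.2% for Gata6 with Gata4. Free RNA subtraction gives no value for erythroid-like cells, since its amount was set by globin UMIs. No paired analysis was possible because each genotype has 1 library, and no replicate could be left out. Intervals cover counting error only, and a difference within them was not detectable at this depth.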
